A study of Homo sapiens with 6 samples.

Results

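The caveolae genes described here are CAV1, CAVIN1, CAVIN2, CAVIN3, EHD2, PACSIN2 and PACSIN3, which encode a caveolin, cavins and proteins of the caveola neck. They are 7 of the 18404 genes with a value on the arrays, each taken from its single probe set. Expression was measured in H69 and H69M, both labelled as human small cell lung cancer lines, with 3 Affymetrix whole-transcript arrays of each. H69 is an established neuroendocrine line whose cells float in clusters in culture. The origin of H69M is not stated in the labels, which give no treatment, time or allele for either line. The labels also do not say whether the 3 arrays of a line came from separate cultures, so every error and p-value covers only array-to-array spread, part or all of which may be technical. The genes were chosen with their difference between H69M and H69 already known, so that difference is described here and not tested.

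Caveolae are flask-shaped pits of the plasma membrane, plentiful in adipocytes, endothelial cells, muscle, fibroblasts and alveolar type 1 cells. Caveolin-1 inserts into the membrane as a hairpin and binds cholesterol, and cavin-1 assembles with it into the coat that bends the membrane, with the other cavins joining that coat. EHD2, an ATPase that forms a ring at the neck, holds caveolae at the surface, and pacsins (syndapins), which carry a membrane-curving F-BAR domain, act at the neck as well. The coat flattens when the membrane is stretched, which makes caveolae a reserve of membrane.

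The coat genes CAV1 and CAVIN1 and the neck gene EHD2 were far higher in H69M than in H69, whereas the other genes of the group differed by less than 2-fold in either direction. Values are log2 per probe set, normalised between arrays by RMA. CAV1 (probe set 8135594), which encodes the main coat protein outside muscle, read 4.72, 4.62 and 4.44 on the H69 arrays and 12.59, 12.69 and 12.66 on the H69M arrays. The arrays of the lines lay 7.87 apart at their closest, while the arrays within a line stayed within 0.28. The means (log2, ± SD, n = 3) were 4.60 ± 0.14 for H69 and 12.65 ± 0.048 for H69M, which differ by 8.05 ± 0.081 (log2, SE) or 265-fold. No other of the 18404 genes had a larger difference in that direction. The H69 values of CAV1 and CAVIN1, and all values of CAVIN2, lay below the array medians (6.43 to 6.48). RMA values carry no detection call, so folds from such dim values can be understated.

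CAVIN1 (probe set 8015635), whose protein is required to form the coat, read 5.37, 5.24 and 5.75 in H69 and 9.04, 8.99 and 9.07 in H69M. H69 replicate 3 was the highest H69 array, and still lay 3.24 below the lowest H69M array. CAVIN1 was 3.58 ± 0.12 (log2, SE) higher in H69M, or 12.0-fold, which placed it 118 from the top among all genes ordered by difference. Its H69M arrays were closer together (SD 0.04, n = 3) than its H69 arrays (SD 0.27, n = 3).

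The cavins did not share a direction. CAVIN2 (probe set 8057797), whose product binds phosphatidylserine and helps to shape caveolae, read 5.10, 5.30 and 5.26 in H69 and 6.20, 6.16 and 6.10 in H69M. It was 0.93 ± 0.071 (log2, SE) higher, or 1.91-fold, with 0.80 between the nearest arrays of the lines. CAVIN3 (probe set 7946142), which encodes a cavin that binds protein kinase C delta, read 7.99, 7.79 and 7.89 in H69 and 7.36, 7.40 and 7.29 in H69M. Every H69M array was below every H69 array, and the difference was -0.54 ± 0.070 (log2, SE), or 1.45-fold lower. CAVIN3 was the only one of the 7 genes with all H69M arrays below those of H69.

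Of the neck genes, EHD2 was the one with a large difference. EHD2 (probe set 8029950) read 6.89, 6.81 and 7.05 in H69 and 9.36, 9.68 and 9.60 in H69M. The groups were 2.31 apart, and the difference was 2.63 ± 0.10 (log2, SE) or 6.20-fold, at place 259 from the top. H69M replicate 1 was its lowest H69M array, as it was for CAV1, PACSIN2 and PACSIN3. PACSIN3 (probe set 7947801), the pacsin best known from muscle, read 6.58, 6.56 and 6.44 in H69 and 6.93, 7.05 and 7.0 in H69M. It was 0.47 ± 0.066 (log2, SE) higher, or 1.38-fold, with no overlap between the lines. PACSIN2 (probe set 8076533), the widely expressed pacsin, read 9.53, 9.57 and 9.58 in H69 and 9.43, 9.46 and 9.59 in H69M. Its arrays overlapped and its difference was -0.065 ± 0.064 (log2, SE). Values of one probe set cannot be set against those of another, so they do not order the genes by abundance.

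**Figure D1:**
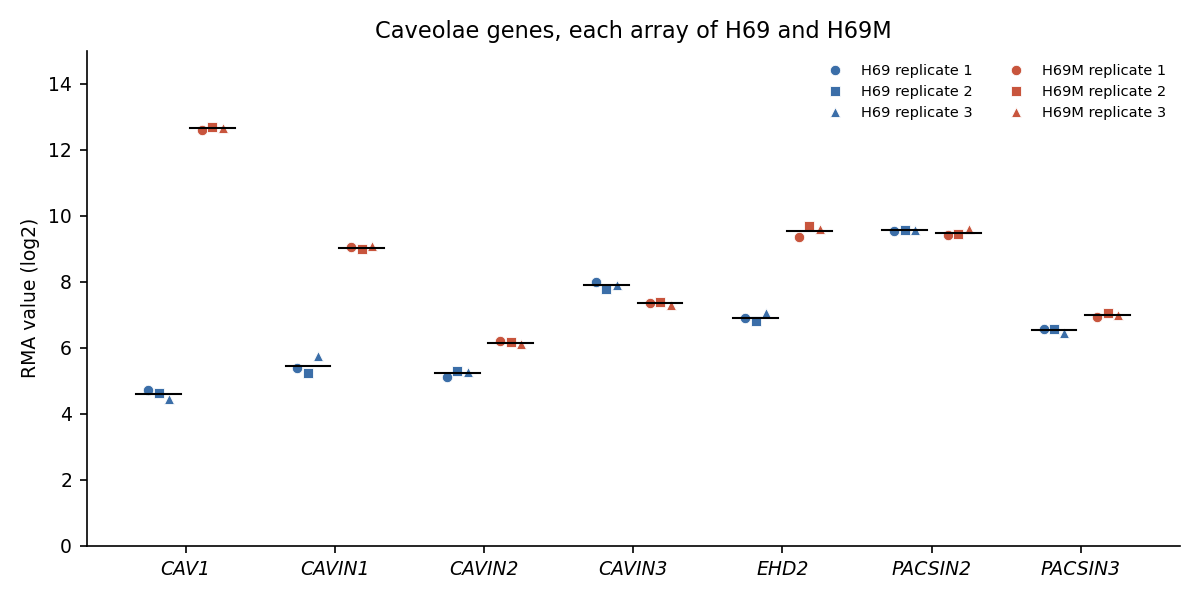
RMA values (log2, vertical axis) of the 7 caveolae genes on each of 3 H69 (blue) and 3 H69M (red) arrays, with a black line at each mean. CAV1 stood at 4.44 to 4.72 in H69 and 12.59 to 12.69 in H69M, and PACSIN2 was the only gene whose arrays overlapped.

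In the fit across all genes (limma, Benjamini-Hochberg adjusted p threshold of 0.05), 5 of the 7 genes were past the threshold on the higher side, where 21.0% of all genes were, and 1 on the lower side, where 23.2% of all genes were. In either direction this made 6 of 7, against 44.2% of all genes. The H69M arrays were all above the H69 arrays for 5 of the 7 genes and all below for 1, against 25.8% and 30.0% of all genes (55.8% in either direction). At a difference of at least 2-fold the count was 3 of 7 higher and 0 lower, against 5.56% and 2.72% of all genes. The median difference was 0.93 over the 7 genes and -0.041 over all genes. As the genes were chosen from this contrast, these counts are a description only. With each array left out in turn, the difference stayed between 7.97 and 8.11 for CAV1, 3.47 and 3.73 for CAVIN1, 2.56 and 2.73 for EHD2, 0.87 and 0.97 for CAVIN2, 0.42 and 0.50 for PACSIN3, and -0.59 and -0.48 for CAVIN3 (log2).

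Promoter sequence was at hand for 4 of the 7 genes in RefSeq (GRCh38.p14), as windows of 300 bases that run from 250 before a transcript start to 50 after it. The stretch of 250 bases before the most upstream start is shown for each of these 4, which include CAV1, with the largest difference, and PACSIN2, whose arrays overlapped. They lie at chr7:116524759-116525008 (CAV1, plus strand), chr19:47713172-47713421 (EHD2, plus strand), chr2:191847089-191847338 (CAVIN2, minus strand) and chr22:43015150-43015399 (PACSIN2, minus strand). Sequences run 5′ to 3′ along the gene, and capitals mark GGGCGG, the GC box read by SP1, and GGAATG, the core read by TEAD factors, on either strand.
CAV1: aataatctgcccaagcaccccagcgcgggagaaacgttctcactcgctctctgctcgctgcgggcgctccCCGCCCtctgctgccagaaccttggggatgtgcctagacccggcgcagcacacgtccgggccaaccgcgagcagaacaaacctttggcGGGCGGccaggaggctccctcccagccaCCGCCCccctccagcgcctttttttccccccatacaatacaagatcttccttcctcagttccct
EHD2: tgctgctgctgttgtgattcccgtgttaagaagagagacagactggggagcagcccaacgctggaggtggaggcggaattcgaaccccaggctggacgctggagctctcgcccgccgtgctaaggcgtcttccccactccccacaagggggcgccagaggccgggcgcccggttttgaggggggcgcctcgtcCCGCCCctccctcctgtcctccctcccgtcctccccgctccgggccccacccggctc
CAVIN2: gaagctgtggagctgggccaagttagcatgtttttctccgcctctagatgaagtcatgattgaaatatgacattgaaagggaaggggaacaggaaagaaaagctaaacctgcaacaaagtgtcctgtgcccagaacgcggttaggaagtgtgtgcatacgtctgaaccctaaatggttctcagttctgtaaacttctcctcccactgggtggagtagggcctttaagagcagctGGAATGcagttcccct
PACSIN2: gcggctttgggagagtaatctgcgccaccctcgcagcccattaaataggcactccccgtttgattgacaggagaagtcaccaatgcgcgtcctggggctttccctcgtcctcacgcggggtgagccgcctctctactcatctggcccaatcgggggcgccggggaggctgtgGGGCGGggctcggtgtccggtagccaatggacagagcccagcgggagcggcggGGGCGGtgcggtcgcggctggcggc
The CAV1 stretch held 3 GC boxes, whose first bases lay 180, 92 and 64 bases before the start, the EHD2 stretch 1, at 57, and the PACSIN2 stretch 2, at 78 and 25. The CAVIN2 stretch held none and had instead 1 TEAD core, 16 bases before the start. GC boxes were present upstream both of CAV1, with the largest difference, and of PACSIN2, with almost none. Of all 35116 windows of this length, 45.0% held a GC box and 14.0% a TEAD core.

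Windows at other starts of the same genes added to this. The GC box occurred in 3 of 3 CAV1 windows and 1 of 6 PACSIN2 windows, and the TEAD core in 0 of 3 and 4 of 6; several of these windows overlap. The AP-1 site TGANTCA was in 0 of the 11 windows of these 4 genes (7.71% of all windows), and CACCTG, an E-box bound by ZEB and SNAI factors, in 2 of 11, both at PACSIN2 (20.6%). The outer letters of the CArG box bound by serum response factor (CC and GG with 6 bases of any kind between) were in 10 of 11, but also in 78.2% of all windows; such matches can overlap other motifs and are not capitalised. The most upstream windows of CAV1, EHD2 and PACSIN2 were rich in G and C (62.3%, 71.0% and 68.7%) with 19, 30 and 27 CpG dinucleotides. The CAVIN2 window had 49.3% and 5 CpG, against medians of 58.7% and 14 over all windows. A match is a run of letters and not a measured site.

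With their relatives added, the families held differences of unlike size. Directions were mixed among the cavins and pacsins, while the differences of the EHD genes were all positive. The muscle caveolin gene CAV3 differed by 0.026 ± 0.087 (log2, SE; limma, Benjamini-Hochberg adjusted p = 0.84), with overlapping arrays; its locus overlaps OXTR. The probe set that covers CAV2, which encodes the partner of caveolin-1, carries a second symbol and was assigned to no gene. CAVIN4, the muscle cavin, fell by 0.96 on the log2 scale (SE 0.073; limma adjusted p = 2.59e-05). Its locus overlaps TMEFF1 and a readthrough gene, so its reading is uncertain. All caveolae genes but CAV1 also overlap another locus, such as CAVIN2-AS1 at CAVIN2 and MIR6745 at PACSIN3. So do the relatives EHD1, EHD3 and EHD4. Whether these loci add to the readings was not tested.

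Among the EHD ATPases, which remodel endosomal and surface membranes, EHD4 rose by 1.45 ± 0.16 (log2, SE; limma adjusted p = 0.000163) and EHD1 by 0.61 ± 0.085 (limma adjusted p = 0.000631). EHD3 had a difference of 0.20 (limma adjusted p = 0.0359). That call was lost with the replicate number as a block (limma adjusted p = 0.0629), with median-centred arrays (0.172), after a further quantile normalisation (0.156) and without any 1 array other than H69M replicate 3 (0.061 to 0.113). PACSIN1, the neuronal pacsin of synaptic vesicle recycling, went the other way from PACSIN3 and fell by 0.79 on the log2 scale (SE 0.058; limma adjusted p = 1.91e-05). Of these 6 relatives, 3 rose and 2 fell, against 21.0% and 23.2% of all genes, with a median difference of 0.11; the same shares of all genes stand beside every list that follows. Differences between relatives were not tested. This list and those that follow were also chosen with earlier results of these data known. Their counts and p-values describe these data and are not independent support.

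**Figure D2:**
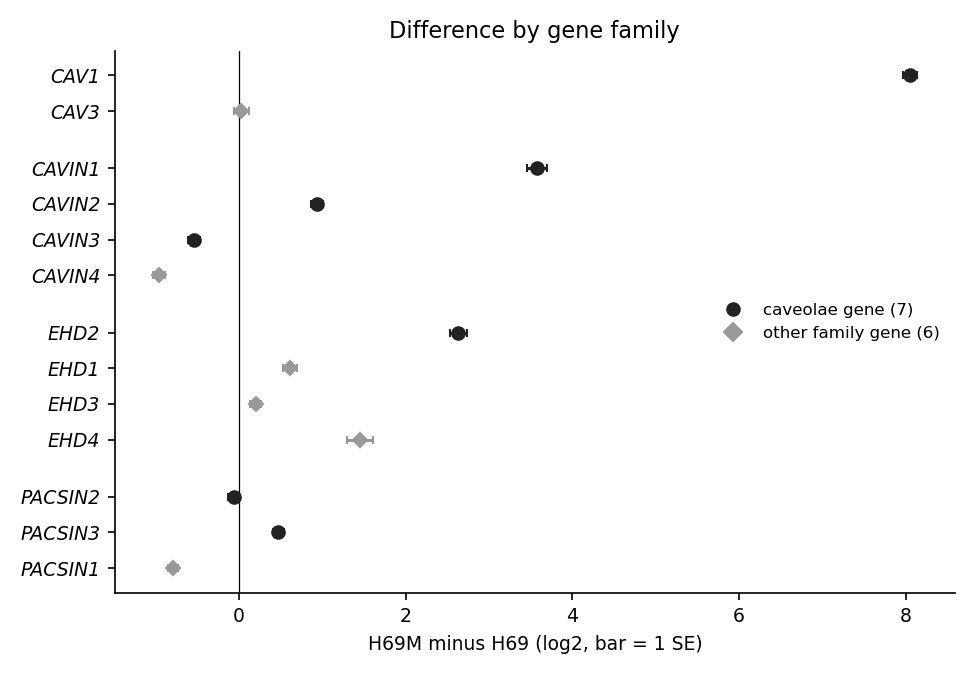
Difference H69M minus H69 (log2, horizontal axis; bars are 1 SE, 3 arrays a line) for the 7 caveolae genes (black circles) and 6 relatives (grey diamonds), grouped as caveolins, cavins, EHD ATPases and pacsins. Each family holds genes with unlike differences, from 8.05 for CAV1 to 0.026 for CAV3 and from 3.58 for CAVIN1 to -0.96 for CAVIN4. The reading of CAVIN4 is uncertain because its locus overlaps others. The probe set with CAV2 and a second symbol is not plotted.

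Kinases and raft scaffolds that act on or beside caveolae were more often higher than lower. Rises were called for 9 of 14 measured genes and a fall for 1, at a median difference of 0.41. STOM, which encodes stomatin, a hairpin protein of membrane rafts, rose by 4.39 ± 0.10 (log2, SE; limma adjusted p = 8.84e-08), from 5.60 to 9.99. YES1, a SRC-family kinase, rose by 4.23 ± 0.11 (limma adjusted p = 1.4e-07), while FYN, a kinase of the same family, fell by 0.87 on the log2 scale (SE 0.055; limma adjusted p = 9.56e-06). The flotillin gene FLOT2 rose by 0.90 ± 0.10 (limma adjusted p = 0.000207). Further members are named after their values were seen. FLOT1, the partner of FLOT2, rose by 0.77 and SRC, which phosphorylates caveolin-1, by 0.36. DNM2, the widely expressed dynamin that cuts vesicles from the membrane, had -0.039 and did not pass. The other dynamin genes of the list rose, DNM1 by 0.74 (limma adjusted p = 5.86e-05) and DNM3 by 0.49 (limma adjusted p = 0.0242). ROR1, a receptor that binds caveolar proteins, had 0.045 and did not pass.

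Receptors and enzymes reported in caveolae rose in most cases. Rises were called for 12 of 17 measured genes and a fall for 1 (median 0.68). PDGFRB, a receptor for platelet-derived growth factor, rose by 3.15 ± 0.17 (log2, SE; limma adjusted p = 3.72e-06), the EGF receptor gene EGFR by 2.63 ± 0.15 (5.64e-06) and the urokinase receptor gene PLAUR by 2.53 ± 0.096 (7.43e-07). TFPI, an inhibitor of coagulation held at the cell surface, rose by 1.73 ± 0.30 (limma adjusted p = 0.00196), from dim values of 3.51 to 4.06 in H69 to 5.12 to 6.29 in H69M. The endothelial nitric oxide synthase gene NOS3, a textbook partner of caveolin-1 named after its value was seen, had -0.043 and did not pass. In a fit without the genes whose level was under the median, 6 genes of this list rose. That fit held 9202 genes, of which 2718 rose. It left out dim genes of the list, TFPI among them, so the 6 are not out of 17.

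Genes of the clathrin route, the other major coat for uptake at the surface, went both ways. Rises were called for 9 of 25 measured genes and falls for 7 (median 0.051). DAB2, an adaptor for receptors of the LDL receptor family, rose by 6.13 ± 0.11 (log2, SE; limma adjusted p = 2.9e-08), from 4.47 to 10.60. Among the falls, SNAP91, a neuronal clathrin assembly protein, had -3.11 ± 0.085 (limma adjusted p = 1.82e-07), amphiphysin, AMPH, -1.73 ± 0.19 (0.000164), and the endophilin gene SH3GL2 -1.11 ± 0.085 (2.5e-05). CLTCL1, a second clathrin heavy chain gene named after its value was seen, had -1.11 (limma adjusted p = 1.42e-05). The main clathrin heavy chain gene CLTC, also named after its value was seen, had 0.14 and did not pass, though it did with either filter on low values and with a mean-variance trend (limma adjusted p of 0.0137 to 0.0448).

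Caveolae need cholesterol, sphingolipids and charged phospholipids. Of 14 measured genes of cholesterol uptake and transport, 7 rose and 2 fell (median 0.20). NPC2, which carries cholesterol out of lysosomes, rose by 2.76 ± 0.088 (log2, SE; limma adjusted p = 3.38e-07), the uptake receptor gene LRP1 by 2.66 ± 0.065 (1.16e-07), LIPA, the lysosomal acid lipase, by 1.73 ± 0.11 (1.05e-05) and the sterol transfer gene STARD3 by 0.62 ± 0.079 (0.000396). The falls were in STARD4 (-0.61), another sterol carrier, and the efflux pump gene ABCG1 (-0.28), both singled out once their values were known. The call of ABCG1 (limma adjusted p = 0.0346) was lost without any 1 array other than H69M replicate 1 (0.0692 to 0.101). The count of falls was 4 without H69M replicate 1 and 1 without any other single array.

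Of 15 genes that make sphingolipids, phosphatidylserine or the phosphoinositide PIP2, 5 rose and 3 fell (median -0.0076). The PIP2 kinase gene PIP5K1B fell by 3.11 on the log2 scale (SE 0.099; limma adjusted p = 3.38e-07), from 8.05 to 4.94. ST3GAL5, which makes the ganglioside GM3, had -0.46 ± 0.074 (limma adjusted p = 0.00148). ST8SIA1, which extends GM3 to GD3, rose by 0.81 ± 0.075 (7.24e-05), and the ceramide synthase gene CERS2 rose by 0.54 ± 0.061 (0.000204). PTDSS1, which makes phosphatidylserine, the lipid that cavins bind, was named after its value was seen; it had -0.024 and did not pass.

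**Figure D3:**
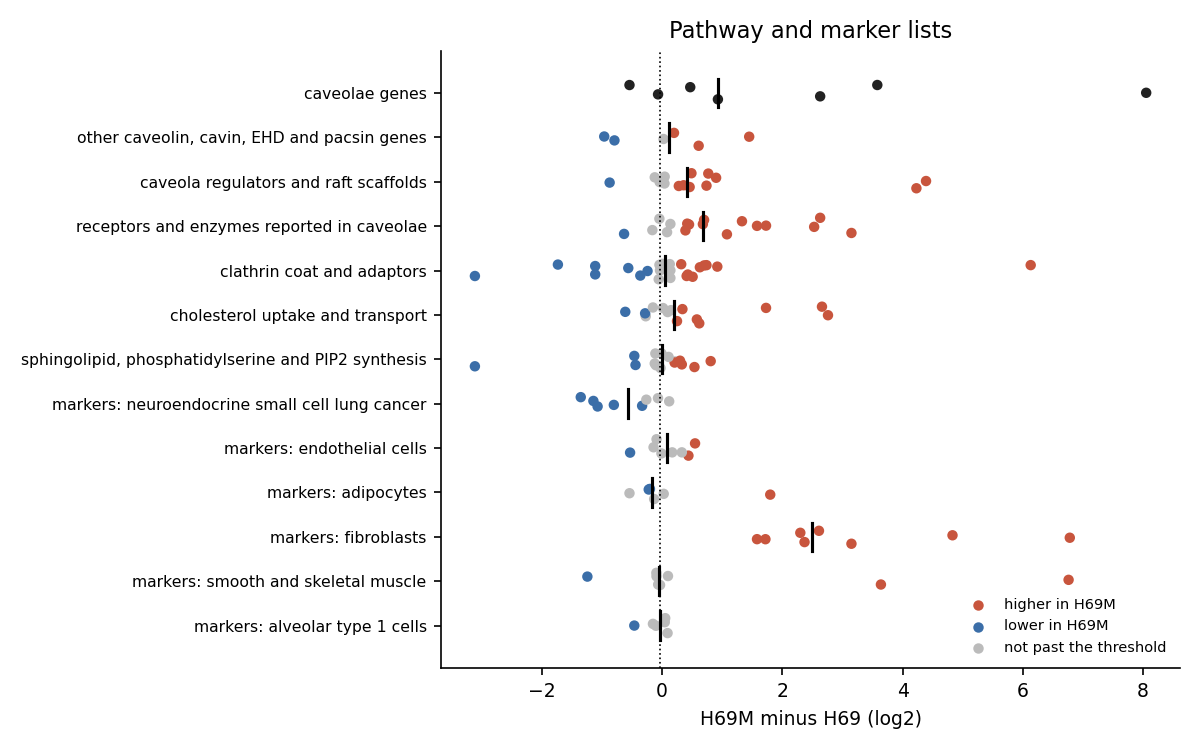
Difference H69M minus H69 (log2, horizontal axis) of each measured gene in the caveolae group (black, not tested), 6 further pathway lists and 6 marker lists, with a short line at each list's median and a dotted line at the median of all genes (-0.041). Red and blue points passed the threshold of the all-gene fit; fibroblast markers sit between 1.58 and 6.78, and endothelial markers between -0.53 and 0.55.

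Marker lists of cell types rich in caveolae gave different pictures. All 8 fibroblast markers rose, led by LUM, a matrix proteoglycan (6.78), and the collagen gene COL1A1 (4.83), with a median of 2.49. Their summed linear signal was 798 to 822 on the H69 arrays and 7763 to 10045 on the H69M arrays. PDGFRA and PDGFRB are also in the list of receptors above. Of 8 smooth and skeletal muscle markers 2 rose and 1 fell: ACTA2 (6.76) and CNN1 (3.64), which code for contractile proteins, were higher, while the muscle creatine kinase gene CKM had -1.24. The defining muscle genes MYH11 (-0.032), DES (-0.063), MYOD1 (-0.093) and MYOG (-0.091) did not pass, although MYOG did with arrays centred on their medians (limma adjusted p = 0.0409). The list's median was -0.047. The summed muscle signal was 660 to 694 in H69 and 5212 to 6733 in H69M, a sum to which ACTA2 (mean log2 level 5.41 in H69 and 12.17 in H69M) and CNN1 (6.15 and 9.79) gave most of the increase.

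Counts for endothelial, adipocyte and alveolar markers moved with the scaling. Of 8 endothelial markers 2 rose, ESAM (0.55) and EMCN (0.44), and 1 fell, CLDN5 (-0.53). PECAM1 (-0.14), CDH5 (-0.0090), VWF (-0.090), TIE1 (0.17) and ERG (0.33) did not pass. The summed endothelial signal was 411 to 451 in H69 and 382 to 395 in H69M. CLDN5 (mean log2 level 7.80 in H69 and 7.27 in H69M) made up the largest part of that sum. The endothelial rises numbered 4 without H69M replicate 3 and 1 without H69 replicate 1 or 2. Of 6 adipocyte markers 1 rose, the fatty acid carrier FABP4 (1.80), and 2 fell, with sums of 293 to 307 in H69 and 261 to 309 in H69M. With single arrays left out, 0 or 1 adipocyte markers fell: 0 without H69 replicate 1, H69 replicate 3 or H69M replicate 2, and 1 without any other. With the replicate block 1 adipocyte marker fell. Of 6 alveolar type 1 markers 0 rose and 1 fell by limma (0 and 1 also at an unadjusted p threshold of 0.05), with sums of 757 to 881 in H69 and 764 to 880 in H69M. With arrays centred on their medians, 3 endothelial markers (PECAM1 and VWF among them), 4 adipocyte markers and 2 alveolar type 1 markers fell. In that setting 6827 of all 18404 genes fell, against 4274 in the main fit. Of 8 measured neuroendocrine markers, which define the labelled cell type, 0 rose and 5 fell by limma (0 and 5 also unadjusted), among them the adhesion gene NCAM1 (-1.35) and CHGB, a granule protein (-1.14). Their summed signal was 10046 to 10334 on the H69 arrays and 6750 to 7660 on the H69M arrays. RMA values have no zero, so no marker reads as absent. The part of the fibroblast, muscle and neuroendocrine markers in the caveolae gene differences was not tested. In bulk RNA, a change in the share of cells of a type and a change in RNA per cell cannot be told apart.

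Genes next to the caveolae genes on their chromosomes went both ways. The probe set that carries CAV2, which lies directly beside CAV1, and a second symbol was assigned to no gene and is not among them; it differed by 5.56 (log2). Over the nearest 2 measured genes on each side of each gene, 28 in all, 9 rose and 5 fell, with a median difference of 0.11. Beside CAV1 on chromosome 7, TES, which codes for a focal adhesion protein, rose by 1.20 ± 0.098 (log2, SE; limma adjusted p = 3.7e-05). On the other side the receptor gene MET had 0.22 ± 0.11 (limma adjusted p = 0.156, and 0.0235 without H69M replicate 1). Beside CAVIN1 on chromosome 17, the transcription factor gene STAT3 had -0.068 (limma adjusted p = 0.366, and 0.0315 with arrays centred on their medians), and ATP6V0A1, a proton pump subunit, fell by 0.55 on the log2 scale (limma adjusted p = 0.000644). Of the 4 genes around EHD2 on chromosome 19, 0 passed the limma threshold (0 also at an unadjusted p threshold of 0.05), the nearest being BICRA (0.086) and NOP53 (-0.0024).

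CAVIN2 on chromosome 2 was higher in H69M together with both of its nearest neighbours. NABP1, which codes for a single-stranded DNA binding protein, rose by 3.87 ± 0.13 (log2, SE; limma adjusted p = 3.88e-07) and TMEFF2, a transmembrane protein, by 1.80 ± 0.12 (limma adjusted p = 1.35e-05). The 2 caveolae genes on chromosome 11 differed in sign from the nearest gene on each side, though differences between a gene and its neighbours were not tested. CAVIN3 was lower in H69M, while the cholecystokinin receptor gene CCKBR (0.69) and the acid sphingomyelinase gene SMPD1 (0.94) on its sides rose. PACSIN3 was higher, while ARFGAP2 (-0.29), an Arf regulator of the Golgi, and DDB2 (-0.42), a DNA damage sensor, fell. One step further out, genes are named after their values were seen. Near CAVIN3, CNGA4 rose by 0.78 (limma adjusted p = 0.00579), while APBB1 (0.054) did not pass. Near PACSIN3, CSTPP1 had -0.29 and was called lower (limma adjusted p = 0.0465), while ACP2 (0.050) did not pass. Beside PACSIN2 on chromosome 22, ARFGAP3 had -0.085 (limma adjusted p = 0.295, and 0.0464 with arrays centred) and the tubulin-modifying gene TTLL1 rose by 0.60.

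**Figure D4:**
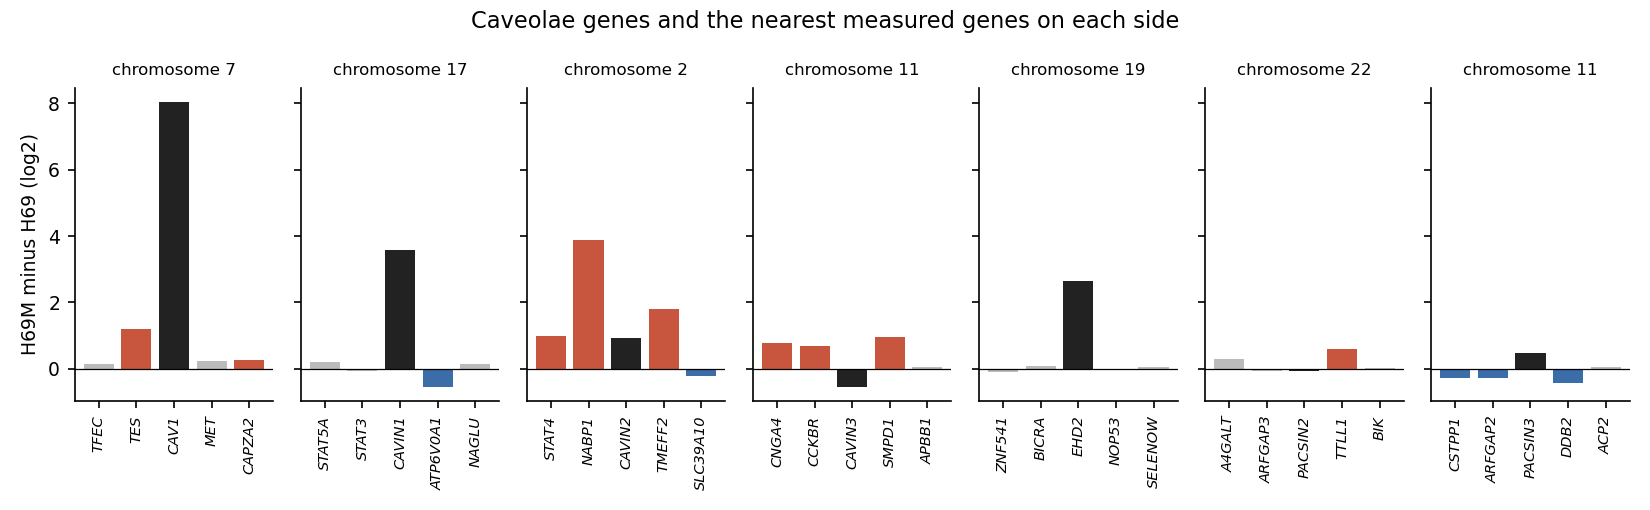
Difference H69M minus H69 (log2, vertical axis) of each caveolae gene (black, not tested) and the 2 nearest measured genes on each side, in chromosome order and without scale for distance. Red and blue bars passed the threshold of the all-gene fit, and grey bars did not; no bar shown beside CAV1, CAVIN1 or EHD2 comes near theirs (the probe set with CAV2 and a second symbol is not plotted), while NABP1 beside CAVIN2 reaches 3.87.

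Genes with the closest values to the 3 that differed at least 2-fold were found by Euclidean distance over the 6 arrays, with each gene taken relative to its own H69 mean. With only 6 arrays in 2 groups, such likeness mostly means a difference of similar size. The nearest genes to CAV1 were SPARC, a matrix glycoprotein (distance 0.58), ITGA5, an integrin subunit that binds fibronectin (1.85), and FN1, fibronectin (1.99). No gene rose more than CAV1, and these were simply the genes with the next largest rises (7.75, 6.99 and 6.91). CAVIN1 was nearest to WLS, which carries WNT ligands to the surface (0.30), the adhesion receptor gene ADGRG6 (0.39) and ME1, malic enzyme (0.42). EHD2 was nearest to DKK3, a secreted protein of the dickkopf family (0.14), TRIM38, a ubiquitin ligase (0.21), and SLFN5, a schlafen protein (0.21). None of these is another caveolae gene, which follows from the unlike differences of CAV1 (8.05), CAVIN1 (3.58) and EHD2 (2.63).

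**Figure D5:**
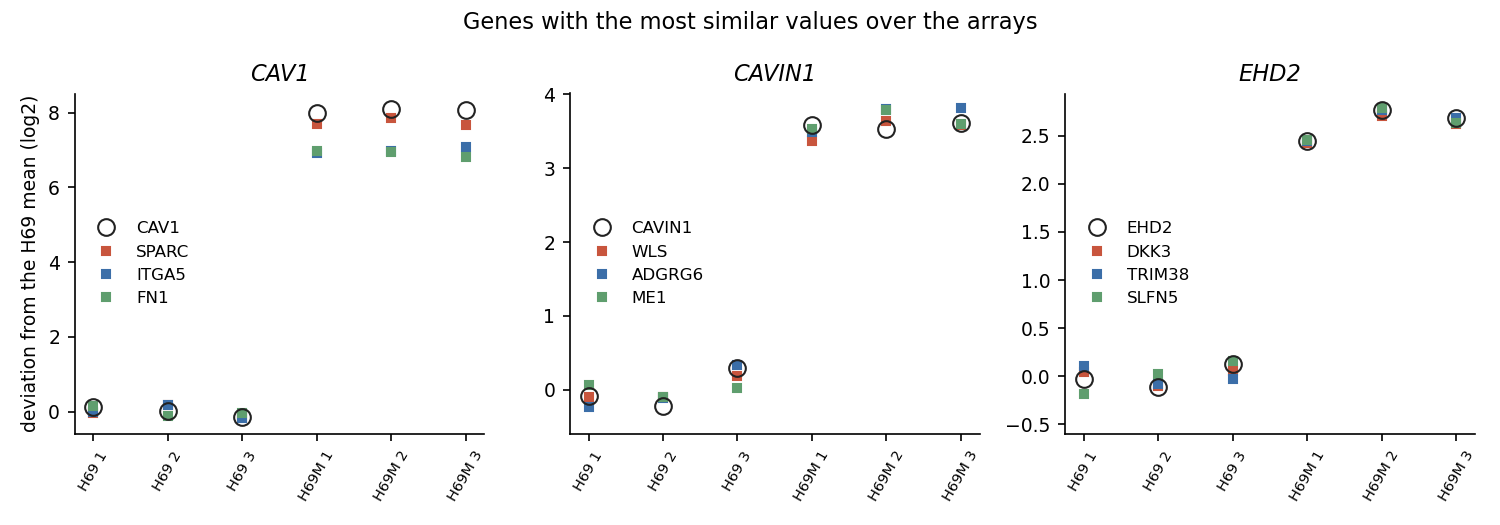
Deviation from the gene's own H69 mean (log2, vertical axis) on each array for CAV1, CAVIN1 and EHD2 (open circles) and for the 3 genes nearest to each (squares). SPARC stays close below CAV1 on the H69M arrays, and DKK3, TRIM38 and SLFN5 lie almost on EHD2, with H69M replicate 1 the lowest of the H69M arrays for all 4.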

How the data were processed

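Total RNA of 2 lines was measured with 3 arrays each. The authors deposited 1 log2 value per probe set and array. RMA and limma are named, with no version, in the submitters' processing notes. Neither the program that ran RMA nor a build is given in the sources used here. The array medians lay between 6.43 and 6.48. RMA values carry no detection call, and folds from dim values can be understated.

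Of 32321 probe sets, 19158 had 1 gene symbol in the platform annotation, 1388 had several and 11775 were not listed. The single-symbol probe sets gave 18404 genes, each by its probe set with the highest mean; 19128 matched the reference gene table (GRCh38.p14, used for names, gene order and overlaps) by Entrez ID. H69M was compared with H69 by limma 3.58.1 (R 4.3.3; lmFit and eBayes, two-sided, group as the only term), with Benjamini-Hochberg adjustment over all 18404 genes and a threshold of 0.05. The code was tested on simulated data. The median standard error was 0.075 (log2), and the number of arrays limits the precision. Python 3.11.15 with pandas 2.3.3, numpy 2.4.6 and matplotlib 3.10.9 did the rest.

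The caveolae genes and the lists were chosen with earlier results of these data known. The genes named are the caveolae genes, their measured relatives, up to 4 genes past the threshold with the largest difference from each pathway list, the nearest neighbour on each side, and the 3 genes nearest in value to each caveolae gene that differed at least 2-fold; others are marked where named. Marker genes are examples, apart from this rule. The alternatives tried were the replicate number as a block, centring, repeated quantile normalisation, 2 filters on low values, 3 other variance or weighting settings, 2 other rules for probe sets, and each array left out.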

Additional observations from a re-analysis of the deposited data

Results flagged for a closer look

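One probe set outside the gene comparison carries the symbols of 2 genes, CAV2 and an uncharacterised locus, and so was assigned to neither. It is given because all its H69M arrays lay above the H69 arrays, as they did for 25.8% of all genes. Probe set 8135587 read 4.35, 4.15 and 4.37 in H69 and 9.42, 10.09 and 10.02 in H69M. The means (log2, ± SD, n = 3) were 4.29 ± 0.12 for H69 and 9.84 ± 0.37 for H69M, which differ by 5.56. Which of the 2 genes gave this signal was not tested.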

How the results depend on the processing

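The differences of the 7 caveolae genes kept their sign under the 16 alternatives wherever a value could be had. Of 110 such values, 105 stayed within 1 SD of the arrays, but many of them were fixed in advance. The replicate block, the mean-variance trend, the robust variance setting, the 2 filters and the 2 probe set rules cannot change these differences. Only centring, repeated quantile normalisation, array weights and leaving out arrays could move them. With arrays centred on their medians the log2 difference was 0.84 for CAVIN2, -0.63 for CAVIN3, -0.15 for PACSIN2 and 0.38 for PACSIN3, and 0.38 for PACSIN3 again with quantile normalisation repeated. Centring raised the genes lower in H69M from 4274 to 6827, so that 31.3% of all calls were on the higher side in place of 47.5%. It also gave 2 falls in the receptor list, 4 in the cholesterol list and 5 in the lipid synthesis list. Repeated quantile normalisation gave 2 falls in the receptor list, and array weights 4 in the cholesterol list. Leaving out genes below the median level removed CAVIN2 and PACSIN3 from the fit, which left 3 of the caveolae genes on the higher side. It also gave 1 relative higher and 1 lower, 6 receptor genes higher and 5 neighbours higher. The filter took genes out of these lists too. Of the 9202 genes left, 2718 were higher and 3153 lower. With single arrays left out, falls in the cholesterol list ranged from 1 to 4 and falls among neighbours from 3 to 5 (3 without H69 replicate 2). Same-numbered arrays of the lines did not deviate together (r of 0.021, 0.0072 and 0.0099 across genes). The labels do not say what the numbers mean, and such correlations cannot exclude a shared batch or culture date. With the replicate block 3617 genes were higher and 4021 lower, and among the named genes the block ended the call of EHD3. The block alters errors and p-values but not the differences. Of 1167 values for 75 other named genes, 1145 stayed on their side of the threshold, 13 lost it (8 of EHD3 and 5 of ABCG1) and 9 passed it.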
